A study of Homo sapiens with 16 samples.

Results

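The receptor tyrosine kinases described here are PDGFRA, PDGFRB, KIT and KDR of the PDGF and VEGF receptor group, FGFR1, FGFR2 and FGFR3, and EGFR, ERBB2 and ERBB3 of the EGF receptor family. They are 10 of the 20007 protein-coding genes of GENCODE release 44, and they were listed by name, with every H3K4me3 and H3K27me3 peak within 5 kb of any annotated start site of a gene counted as its own. CUT&RUN, which releases antibody-bound chromatin with a tethered nuclease for sequencing, had been run on MCF-10A cells, an immortalized but nontumorigenic line from human breast epithelium. Cultures were given 5 mM octanoic acid (OA), a medium-chain fatty acid, or its vehicle (PBS) for 24 hours, with 3 libraries per group for H3K4me3 and 3 per group for H3K27me3. Untreated cells gave 2 H3K4me3 libraries (positive control) and 2 libraries with nonspecific IgG (negative control). Every value therefore comes from 1 line and 1 dose and time, and no untreated H3K27me3 library was analysed here. The question for these genes is whether the marks at their start sites differed between OA and vehicle, and whether PDGFRA differed from KIT and KDR, its neighbours on chromosome 4.

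These receptors sit in the cell membrane, bind growth factors outside the cell and pair up, which switches on a kinase inside the cell that feeds the RAS-MAPK and PI3K-AKT pathways. EGFR and its relatives ERBB2 and ERBB3 are the receptors that breast epithelial cells are best known for using, and MCF-10A cells are usually grown with added EGF. PDGFRA and PDGFRB are known from fibroblasts and other mesenchymal cells, KIT from melanocytes, mast cells and some luminal progenitors, and KDR (VEGF receptor 2) from endothelium. H3K4me3 marks start sites of active or poised genes, H3K27me3 is laid down by Polycomb proteins at silent genes, and the 2 marks together are found at poised developmental genes.

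Peaks had been called in each library on its own, so the measures are whether a peak was called, how many bases of a gene's windows the peaks of a library cover (the called length, in bp), the fold enrichment of a peak over its local background, and the percentile of its −log10 p among all peaks of the same library. On the autosomes and sex chromosomes the vehicle lists of replicates 1, 2 and 3 held 19953, 16381 and 16086 H3K4me3 peaks, and the OA lists 17988, 17975 and 21033. Read totals were not used here, but the reads at each summit could be recovered from the fold and p of the narrow peaks. The lowest local background shared by many peaks, a guide to relative depth only if no control library entered the calling, which is not given in the sources used here, was 0.822, 0.775 and 0.45 reads in vehicle and 0.853, 0.633 and 0.722 in OA. Vehicle replicate 3 had the lowest background and covered the least, 10.3 Mb against 14.3 to 21.2 Mb in the other 5. For H3K27me3 the lists held 18801, 47648 and 28850 broad peaks in vehicle and 32363, 25540 and 9091 in OA, from which no depth can be recovered. OA replicate 3 was the shortest H3K27me3 list.

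Markers of cell types were checked in the lists. All 10 markers of breast epithelium had H3K4me3 in at least 2 of the 6 vehicle and OA libraries, as did 13706 of the 20007 protein-coding genes. KRT5, KRT8, KRT18, ITGA6 and SFN had it in all 6, and so did 57.5% of protein-coding genes, so that the count for this list is near that of other genes. KRT14, a basal keratin, was called in vehicle replicates 1 and 2 and in no OA library, so its groups overlapped at 0 bp. CDH1 was the 1 marker of these 10 that was longer in every OA library, beside 9.13% of all genes tested. It had 1379, 1333 and 0 bp in vehicle and 1480, 1683 and 1676 bp in OA. None was longer in every vehicle library. Of 5 endothelial markers only PECAM1 had any H3K4me3 peak, while CDH5, TEK, VWF and CLDN5 were at 0. Of 5 fibroblast markers COL1A1 alone was called, at 302, 454 and 0 bp in vehicle and 437, 985 and 1336 bp in OA, while COL1A2, COL3A1, DCN and LUM were at 0 in every library. CD14 among the immune markers and MITF and PMEL among the melanocyte markers were called in all 6.

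In PDGFRA, the receptor for the PDGF A and B chains, H3K4me3 was called in all 3 OA libraries and in no vehicle, untreated or IgG library. The called length was 809, 1152 and 1613 bp in OA replicates 1, 2 and 3 and 0 bp in each vehicle library. The groups did not overlap, the mean in OA was 1191 ± 403 bp (SD, n = 3), and the exact two-sided permutation test gave p = 0.1, the smallest that 3 libraries against 3 allow. Across the series 9.13% of the 13706 genes tested had a longer H3K4me3 call in every OA than in every vehicle library, and 0.328% the reverse. After scaling each library to its total called length these shares were 8.17% and 10.9%, with PDGFRA among the former.

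The PDGFRA calls formed 2 separate regions, and neither reached the canonical start site. The first, chr4:54227762-54228231 (hg38), lies upstream of the gene, from −1531 to −1062 bp of that start. Its peaks were 389, 399 and 467 bp long in OA replicates 1, 2 and 3, with folds of 5.26, 7.35 and 12. The second, chr4:54233201-54234346, lies in the first part of the gene, in an intron, at 3908 to 5053 bp past the canonical start. Its peaks were 420, 753 and 1146 bp long, with folds of 5.86, 7.79 and 9.85. All 6 peaks ranked below the middle of their own libraries, at the percentiles 12.3, 18.0 and 42.1 for the upstream region and 22.0, 24.3 and 47.2 for the intronic one, so these are weak peaks, strongest in OA replicate 3. Regions called in all OA and no vehicle library made up 1.84% of the 18734 H3K4me3 regions, and regions of the opposite pattern 0.0801%.

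The intronic region spans a start site that RefSeq lists for PDGFRA and GENCODE release 44 does not. This internal start lies 4667 bp past the canonical one, and the 250 bases before it carried H3K4me3 in each OA library but in none from vehicle, as did 0.507% of the 34943 RefSeq promoter windows of this length (0.0715% had the reverse). The 250 bases before the canonical start had no peak in any library. The sequences are shown because they differ in CpG content, which is commonly high at start sites with H3K4me3. They were read 5′ to 3′ from hg38, at windows of the RefSeq promoter table (GRCh38.p14) or around the middle summit of the upstream region, with CpG in capitals and with bases of annotated exons left out.
PDGFRA upstream region, chr4:54227778-54228027, + strand: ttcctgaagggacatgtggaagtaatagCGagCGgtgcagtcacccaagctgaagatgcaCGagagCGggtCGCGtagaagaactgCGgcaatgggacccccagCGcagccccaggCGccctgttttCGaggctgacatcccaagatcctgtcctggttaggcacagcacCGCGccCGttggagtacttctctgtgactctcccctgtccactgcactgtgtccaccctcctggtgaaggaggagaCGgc
PDGFRA canonical promoter, chr4:54229043-54229279, + strand: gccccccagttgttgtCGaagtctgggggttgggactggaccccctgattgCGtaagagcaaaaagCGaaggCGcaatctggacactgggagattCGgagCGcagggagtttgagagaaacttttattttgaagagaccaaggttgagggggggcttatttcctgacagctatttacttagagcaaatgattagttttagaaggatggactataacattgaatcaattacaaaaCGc
PDGFRA internal promoter, chr4:54233710-54233959, + strand: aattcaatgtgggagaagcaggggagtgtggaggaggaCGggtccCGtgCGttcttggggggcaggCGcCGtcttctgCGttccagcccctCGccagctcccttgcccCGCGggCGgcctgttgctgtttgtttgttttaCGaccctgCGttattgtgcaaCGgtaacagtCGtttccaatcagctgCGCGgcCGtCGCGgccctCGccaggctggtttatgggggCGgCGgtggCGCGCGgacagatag
KIT promoter, chr4:54657707-54657888, + strand: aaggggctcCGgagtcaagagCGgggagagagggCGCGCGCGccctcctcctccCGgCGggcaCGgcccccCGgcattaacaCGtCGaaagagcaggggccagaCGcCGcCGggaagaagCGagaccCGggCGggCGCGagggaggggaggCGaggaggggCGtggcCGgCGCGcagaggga
KDR promoter, chr4:55125596-55125845, − strand: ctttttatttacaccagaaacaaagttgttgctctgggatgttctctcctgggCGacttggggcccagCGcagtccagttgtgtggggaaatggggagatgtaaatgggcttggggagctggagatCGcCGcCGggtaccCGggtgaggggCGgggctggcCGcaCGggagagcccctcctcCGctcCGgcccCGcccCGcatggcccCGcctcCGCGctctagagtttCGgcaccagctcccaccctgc
The window before the canonical PDGFRA start held 8 CpG in 250 bases, as few as or fewer than which were found in 46.0% of all promoter windows (median 11). Before the internal start there were 25, and 80.4% of windows held as few or fewer. The KIT window held 34 and the KDR window 17. The GGGCGG box bound by SP1-type factors, searched on both strands, was present in the windows of the internal PDGFRA start, KIT and KDR and in 42.5% of all windows, and it was not found before the canonical PDGFRA start. None of these 4 windows held TATAAA (10.8% of all windows), the E-box CAGGTG (17.5%) or the AP-1 site TGACTCA (4.22%, on both strands, so that TGAGTCA counts the same sites).

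**Figure D1:**
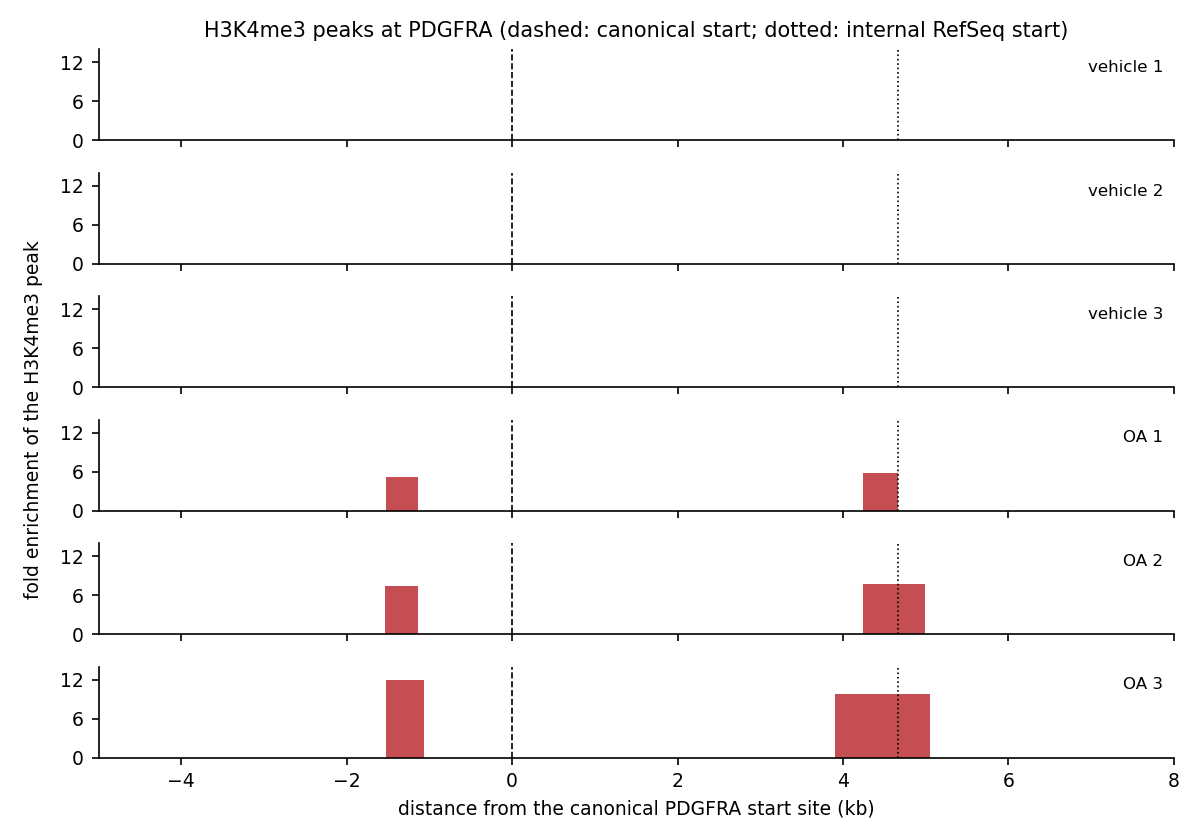
H3K4me3 peaks from 5 kb before to 8 kb after the canonical PDGFRA start site in the 3 vehicle (blue, no peak) and 3 OA libraries (red). The x axis is the distance from the start in kb, the height is the fold enrichment of the peak, and the lines mark the canonical (dashed) and the internal RefSeq start (dotted). The 3 OA libraries each had a peak before the start and one at the internal start, with folds of 5.26 to 12.

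The reads behind these peaks were few. The upstream peaks had 10, 11 and 29 reads at the summit in OA replicates 1, 2 and 3, and the intronic peaks 14, 19 and 46. The weakest peaks called anywhere in the vehicle libraries had 6, 6 and 5. The part of depth in the missing vehicle calls was not tested. An uncalled region may still hold reads below the threshold, so the mark is not shown to be absent in vehicle.

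In the fit across all genes (limma on log2 of called length + 200 bp, with Benjamini-Hochberg adjustment over 13706 genes) PDGFRA had a log2 difference of 2.76 (SE 0.38, adjusted p = 0.123). No gene passed an adjusted p of 0.05 in either direction, while 740 (5.4%) were higher and 6 (0.0438%) lower in OA at an unadjusted p under 0.05. Scaling each library to its total called length moved the median log2 difference of all genes from 0.16 to −0.07 and the unadjusted split to 870 higher and 682 lower. Under it 30 genes passed, PDGFRA among them with 2.67 (SE 0.31, limma adjusted p = 0.0302). PDGFRA entered the fit, which takes genes called in at least 2 libraries, only through its OA calls, so it had to differ in that direction. The pattern was also known from earlier work on these same lists, and neither p is independent evidence for it. The same holds for the permutation p of PDGFRA, alone or against its neighbours.

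KIT, the stem cell factor receptor, lies 429 kb past the PDGFRA start. Its H3K4me3 called length was 0 bp in each vehicle library and 209, 0 and 1120 bp in OA replicates 1, 2 and 3. The call rested on 1 region, chr4:54658557-54659676, from 600 to 1719 bp past the canonical start, with a fold of 5.17 in OA replicate 1 and 10.4 in OA replicate 3. Because OA replicate 2 had no call, the groups overlapped at 0 (exact permutation test, p = 0.4). KIT also had the longest mean H3K27me3 call of the 10 members in each group, though not in every library. Its called length for that mark was 1144, 1106 and 1324 bp in vehicle and 1305, 389 and 0 bp in OA (exact permutation test, p = 0.3).

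**Figure D2:**
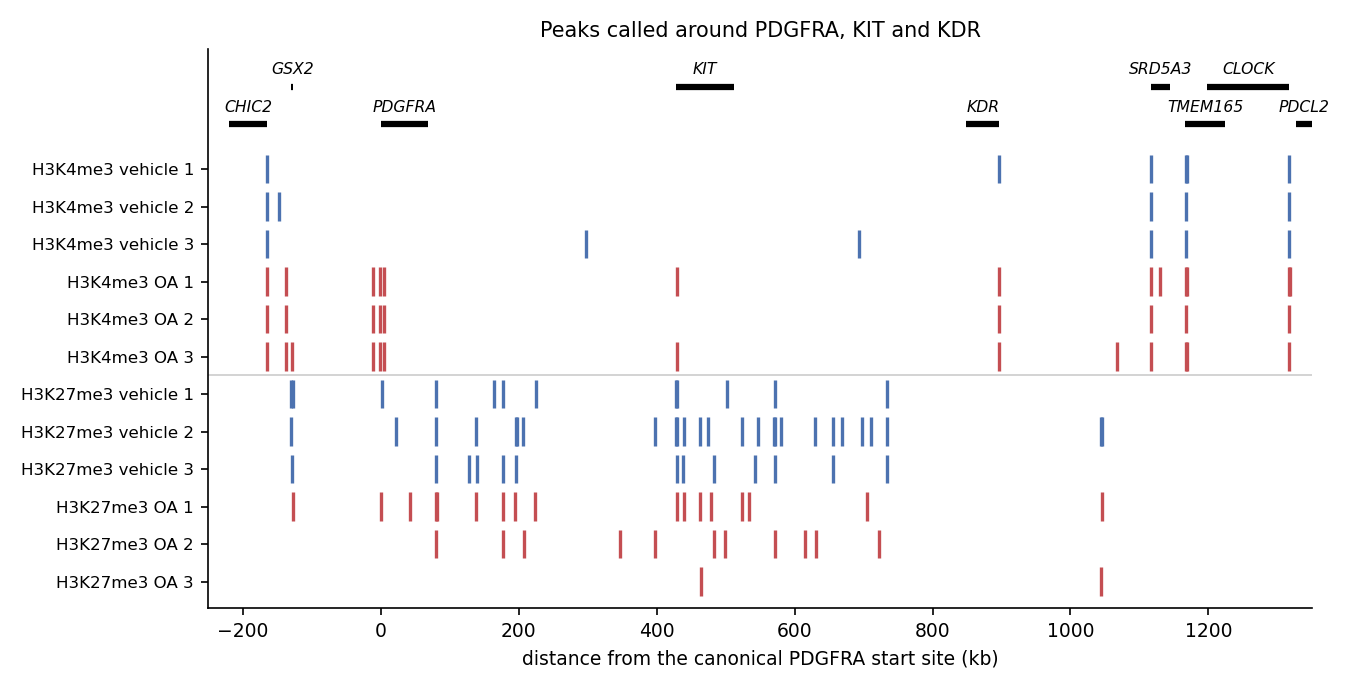
Peaks around PDGFRA, KIT and KDR in the 12 vehicle (blue) and OA (red) libraries, each peak drawn as a tick at its middle; the x axis is the distance from the canonical PDGFRA start in kb and black bars are genes. Ticks next to the PDGFRA start occur for H3K4me3 in the 3 OA libraries, whereas the CHIC2, SRD5A3, TMEM165 and CLOCK starts have a tick in all 6 H3K4me3 libraries.

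The main H3K27me3 region of KIT, chr4:54658080-54659135, had a peak in each of the 3 vehicle libraries and in OA replicate 1, with folds from 3.27 to 3.70. It overlaps the H3K4me3 region of OA replicates 1 and 3, so OA replicate 1 had peaks of both marks there, in separate libraries. Of the other 9 H3K27me3 regions within 5 kb of a KIT start, 2 were called in 2 libraries and 7 in 1.

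KDR, 896 kb past the PDGFRA start on the opposite strand, had 400, 0 and 0 bp of H3K4me3 in vehicle and 197, 385 and 789 bp in OA. Its only region, chr4:55125256-55126044, covers the canonical start, and its peak in vehicle replicate 1 had a fold of 8.77, higher than the 7.21 and 7.35 of OA replicates 1 and 2 and lower than the 14.0 of OA replicate 3. The groups overlapped (exact permutation test, p = 0.3). No library had an H3K27me3 peak within 5 kb of a KDR start.

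Set against its neighbours, PDGFRA had the longer H3K4me3 call in every OA library. PDGFRA less the mean of KIT and KDR was −200, 0 and 0 bp in vehicle and 606, 959.5 and 658.5 bp in OA. The OA mean of 741 ± 191 bp was 808 bp above the vehicle mean of −66.7 ± 115 bp (SD, n = 3 each), with no overlap (exact two-sided permutation test, p = 0.1). Against KIT alone the difference between the groups was 748 bp, and against KDR alone it was 868 bp (exact permutation test, p = 0.1 for each). With windows of 1 kb, which miss both PDGFRA regions, PDGFRA less the mean of KIT and KDR differed by −383 bp (exact permutation test, p = 0.2). The PDGFRA length sums 2 regions, against 1 each for KIT and KDR. Its strongest peaks stood at percentiles of 22.0, 24.3 and 47.2 in OA replicates 1, 2 and 3. Those of KDR stood at 33.3, 18.0 and 54.7, and those of KIT at 12.9 and 40.7 in OA replicates 1 and 3. PDGFRA was thus longer than KDR in every OA library but ranked higher only in replicate 2. The PDGFRA calls were known beforehand, so these p are not independent evidence.

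The segment from 1 Mb before PDGFRA to 1 Mb past KDR, the regions of these receptors included, held 18 H3K4me3 regions, of which 9 were called in all 6 libraries (59.1% of H3K4me3 regions in the whole series). SCFD2, FIP1L1 and CHIC2 on the near side and SRD5A3, TMEM165, CLOCK, NMU, EXOC1 and CEP135 on the far side had H3K4me3 at a start site in all 6. A region at the CRACD start, 1819 to 1821 kb past the PDGFRA start, was called in vehicle replicates 1 and 2 and in all 3 OA libraries. The genes ENSG00000282278 and ENSG00000288695, listed without a symbol, have starts beside those of FIP1L1 and SRD5A3, share their peaks and were called in all 6 too. Called in all OA and no vehicle library were 4 of the 18, beside 1.84% of H3K4me3 regions in the whole series. They were the 2 PDGFRA regions, one at −11.6 to −11.3 kb from the PDGFRA start and one at −138 to −137 kb, 7 kb from the start of the homeobox gene GSX2. These 4 were noticed after their values were seen, and 2 of them belong to PDGFRA by the choice of the gene. GSX2 itself had 1338 bp of H3K4me3 in OA replicate 3 and none in the other 5 libraries, beside H3K27me3 of 902, 296 and 462 bp in vehicle and 329, 0 and 0 bp in OA. LNX1 was called for H3K4me3 in OA replicates 2 and 3, in no vehicle library and in 1 untreated library, and PDCL2 and EXOC1L in no library.

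PDGFRB, the receptor for the PDGF B and D chains, is the only one of the 10 whose mean H3K4me3 call was shorter in OA. It had 546, 611 and 0 bp in vehicle and 0, 0 and 288 bp in OA (exact permutation test, p = 0.4). Neither of its 2 regions lies near its main start. One, in vehicle replicate 2 and OA replicate 3, lies past the end of the gene, nearest to the start of CSF1R, and the other, in vehicle replicate 1 alone, lies 25696 bp past the canonical start. The CSF1R-side peaks were among the weakest of their libraries, at percentiles 3.76 and 0.604. For H3K27me3, PDGFRB had 675, 0 and 0 bp in vehicle and 1619, 0 and 0 bp in OA, so that only the first replicate of each group had a call. PDGFRA had 176, 0 and 0 bp and 169, 0 and 0 bp of that mark.

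**Figure D3:**
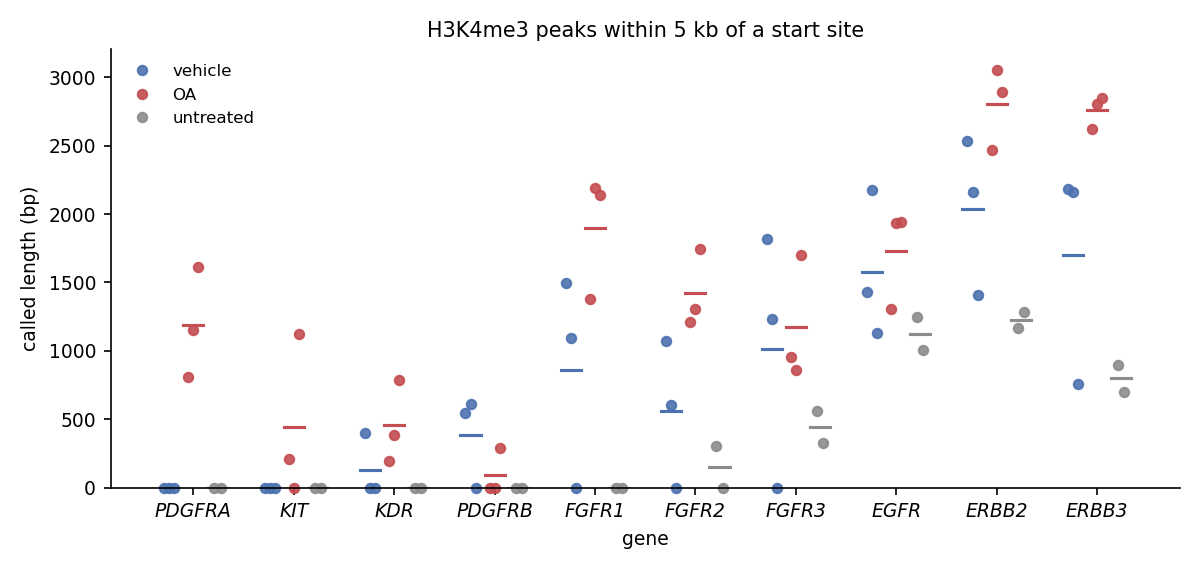
H3K4me3 called length in bp (y axis) for each receptor gene (x axis) in the vehicle, OA and untreated libraries, each point 1 library and each bar the mean of its group. PDGFRA is at 0 in every vehicle and untreated library and at 809 to 1613 bp in OA, while EGFR, ERBB2 and ERBB3 lie above 0 in every library drawn.

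The FGF receptors were called in vehicle replicates 1 and 2 and in all OA libraries, and none was called in vehicle replicate 3. FGFR2, whose splice forms serve epithelium and mesenchyme, had 1075, 605 and 0 bp in vehicle and 1214, 1304 and 1744 bp in OA, without overlap (exact permutation test, p = 0.1). The folds, 7.03 and 5.77 for vehicle and 7.12, 12.1 and 8.63 for OA, came from 1 region that covers the canonical start. The log2 difference was 1.44 (SE 0.63, limma adjusted p = 0.926) and 0.66 without vehicle replicate 3 (limma adjusted p = 0.667).

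FGFR1 had 1496, 1091 and 0 bp in vehicle and 1379, 2187 and 2136 bp in OA, with OA replicate 1 inside the vehicle range (exact permutation test, p = 0.2). Part of that length comes from a region at the far end of the gene, nearest to the start of LETM2, and with only the peaks nearest to its own start FGFR1 was longer in every OA library. FGFR3 had 1821, 1231 and 0 bp and 955, 864 and 1700 bp (exact permutation test, p = 1). With all 6 libraries the FGFR3 mean was higher in OA by 156 bp, and without vehicle replicate 3 the difference was −353 bp. In the untreated libraries FGFR3 was called at 559 and 325 bp, FGFR2 at 305 and 0 bp, and FGFR1 at 0 and 0 bp.

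FGFR1 was the one member with an H3K27me3 region in all vehicle and no OA library, a pattern of 2.55% of the 32643 H3K27me3 regions (0.245% had the reverse). The region is chr8:38467099-38468573, from 62 to 1536 bp past the canonical start, and it lies inside the H3K4me3 region chr8:38466938-38468592. Its called length was 1433, 561 and 230 bp in vehicle and 0 bp in each OA library (exact permutation test, p = 0.1), and 9.21% of the 4117 genes tested for this mark had a longer call in every vehicle than in every OA library, against 0.656% with the reverse. Scaled to the called length of each library these shares were 6.22% and 2.09%, and without OA replicate 3, the short list, they were 9.88% and 6.88%. The FGFR1 peaks were weak, with folds of 3.50, 3.05 and 3.73 and percentiles of 40.9, 2.01 and 47.9. In the fit across genes, which FGFR1 entered only through its vehicle calls, the log2 difference was −2.02 (SE 0.99, limma adjusted p = 0.734), and no gene passed in either direction, with 2 (0.0486%) higher and 201 (4.88%) lower at an unadjusted p under 0.05. The median log2 difference of all genes was −0.42, and −0.16 after scaling to called length, with 28 higher and 106 lower. Without OA replicate 3 there were 101 higher and 101 lower. At a q-value of at most 1e-05, or with the same number of peaks taken from each library, no vehicle call was left at FGFR1. At that q-value 17 genes in place of 4117 could be tested for this mark, and with equal peak numbers 1916, so the loss is not particular to FGFR1.

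**Figure D4:**
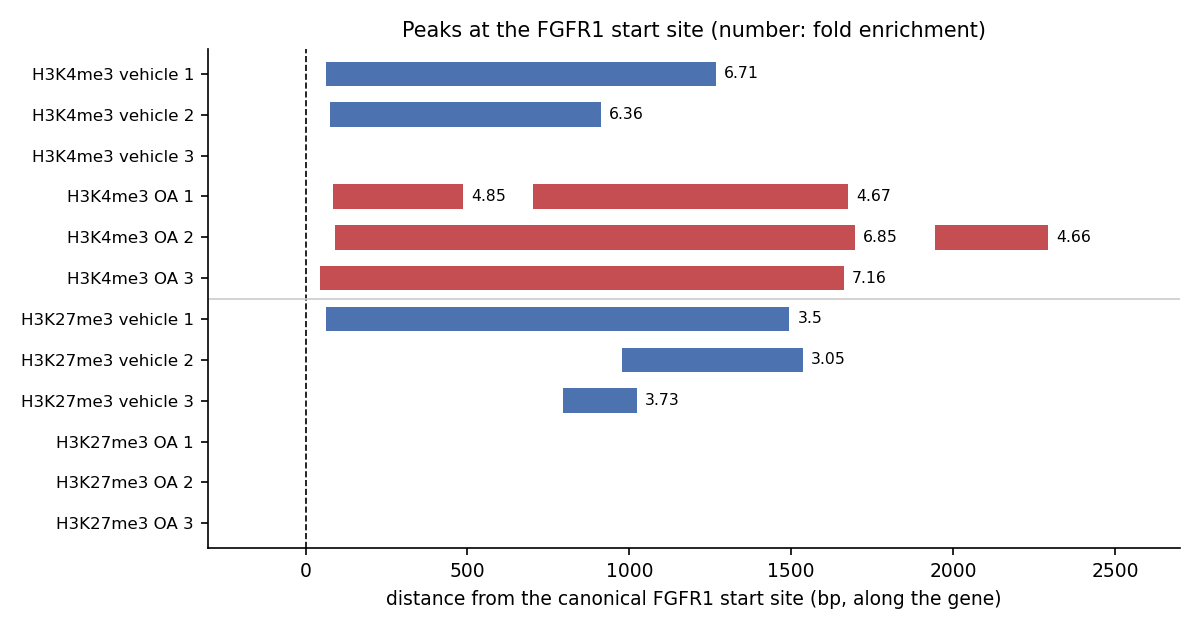
Peaks just past the canonical FGFR1 start in each vehicle (blue) and OA (red) library, H3K4me3 above and H3K27me3 below the grey line, with the fold enrichment beside each. The x axis is the distance from the start in bp along the gene. H3K4me3 was called in 5 of 6 libraries and H3K27me3 in the 3 vehicle libraries only.

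EGFR, ERBB2 and ERBB3 had H3K4me3 in all 6 libraries and in both untreated ones, as did 57.5% of protein-coding genes in the 6. None of them had an H3K27me3 peak in any library, which was the case for 69.4% of protein-coding genes. EGFR, the receptor for EGF and TGFA, had 1431, 2174 and 1132 bp in vehicle and 1304, 1932 and 1943 bp in OA (exact permutation test, p = 0.9). Its log2 difference of 0.14 turned to −0.10 once libraries were scaled to their called length. The peak over its start had folds of 5.59, 7.32 and 8.03 (vehicle) and 6.17, 6.74 and 6.07 (OA). Within the EGFR gene, a second RefSeq start had a peak in vehicle replicate 2 alone.

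ERBB2, the receptor with no known ligand of its own that pairs with the others, had the longest mean call of the 10 in vehicle, with 2530, 2162 and 1412 bp, against 2464, 3051 and 2891 bp in OA (exact permutation test, p = 0.2). Its windows hold 3 regions called in all 6 libraries, of which those nearest to PGAP3 and MIEN1 may belong to these genes. Over the canonical ERBB2 start the folds were 12.4, 15.3 and 10 (vehicle) and 10.5, 13.5 and 12.8 (OA). The peak there stood at percentiles of 92.4, 78.2 and 52.8 in vehicle and 96.1, 80.2 and 91.3 in OA, and the lowest of these was in vehicle replicate 3.

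ERBB3, the neuregulin receptor with a nearly inactive kinase, had 2182, 2164 and 757 bp in vehicle and 2619, 2801 and 2849 bp in OA, without overlap (exact permutation test, p = 0.1). One of its 2 regions is nearest to the start of PA2G4. The log2 difference was 0.75 (SE 0.35, limma adjusted p = 0.959), and 0.32 without vehicle replicate 3 (limma adjusted p = 0.596). Counting only peaks nearest to its own start, it was 1.12 (SE 0.53, limma adjusted p = 0.965), again with a longer call in every OA library. The fold of the peak over its start was 7.64, 10.8 and 6.36 in vehicle, and in OA it was 6.42 at most in replicate 1, 7.23 in replicate 2 and 6.67 in replicate 3. The OA folds at the start were thus below those of vehicle replicates 1 and 2 and above that of vehicle replicate 3. In the region nearest to PA2G4 the folds were 5.90, 7.47 and 11.3 in vehicle and 6.14, 9.88 and 8.58 in OA, with overlap.

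Over all 10 receptors, PDGFRA, FGFR2 and ERBB3 had H3K4me3 called over more bases in every OA than in every vehicle library, and no receptor the reverse, beside 9.13% and 0.328% of all genes tested. The number with any call was 8, 7 and 3 in vehicle replicates 1, 2 and 3, 9, 8 and 10 in OA, and 5 and 4 in untreated cells. The share of all protein-coding genes with a call was 65.8%, 63.5% and 58.9% in vehicle, 65.5%, 66.9% and 70.6% in OA, and 54.4% and 50.1% in untreated cells. Vehicle replicate 3 thus lacked the calls of PDGFRB and the 3 FGF receptors that vehicle replicates 1 and 2 had. Without it 14.5% of genes had a longer call in every vehicle than in every OA library and 9.19% the reverse, while PDGFRA, FGFR2 and ERBB3 remained the 3 receptors that were longer in OA and PDGFRB was longer in vehicle. The number longer in every OA library was 6 without vehicle replicate 1, when KDR, FGFR1 and ERBB2 joined, and 5 without OA replicate 1, when FGFR1 and ERBB2 joined.

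**Figure D5:**
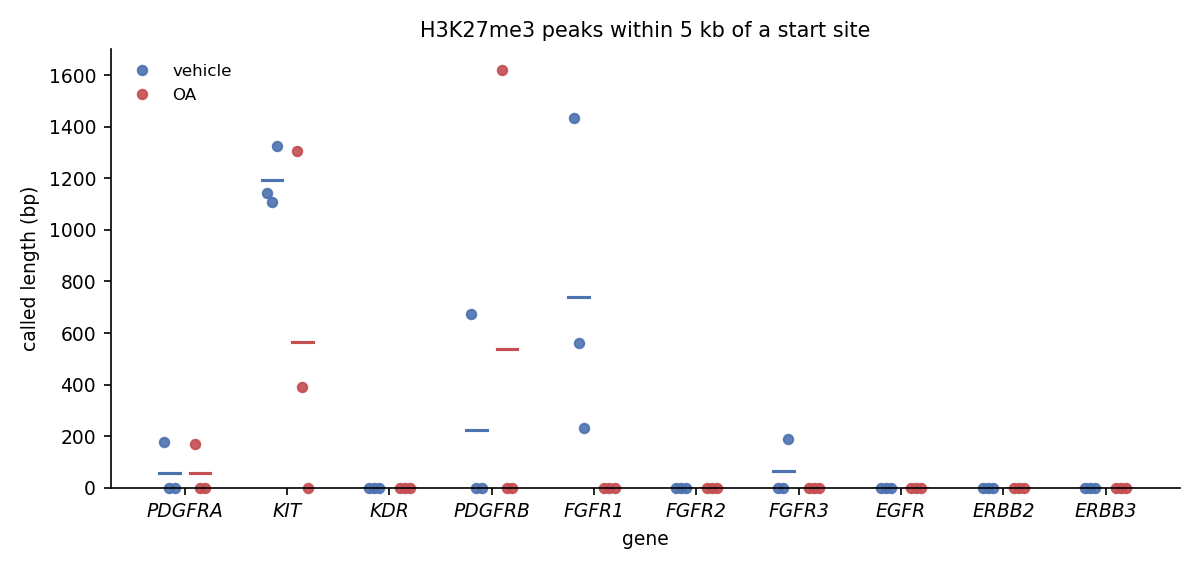
H3K27me3 called length in bp (y axis) for each receptor gene (x axis) in the vehicle and OA libraries, each point 1 library and each bar the mean of its group. FGFR1 has 230 to 1433 bp in vehicle and 0 in OA, KIT has 1106 to 1324 bp in vehicle and 0 to 1305 bp in OA, and KDR, FGFR2, EGFR, ERBB2 and ERBB3 are at 0.

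Other genes of the same pathways were taken from lists of 27 ligands, 9 further receptors, 22 signalling proteins, 17 inhibitors and 10 transcriptional targets. None passed the limma threshold for either mark. Their counts stand beside the 9.13% of all genes tested for H3K4me3 that were longer in every OA library and the 57.5% of protein-coding genes called in all 6. Among the ligands 22 had H3K4me3 in at least 2 libraries, and 5 of these 22 were longer in every OA library, namely PDGFD, FGF2, FGF5, FGF9 and NRG2. FGF9, a ligand of FGFR2 and FGFR3, had 638, 541 and 149 bp in vehicle and 726, 2187 and 2738 bp in OA, with 1 region called in all OA and no vehicle library. PDGFA, the main ligand of PDGFRA, had 2308, 1995 and 639 bp in vehicle and 2158, 2189 and 2577 bp in OA, with overlap. EGF had no H3K4me3 peak, whereas TGFA, HBEGF and AREG were called in all 6 libraries with overlapping groups.

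Of 5 further receptors with H3K4me3 in at least 2 libraries, FGFR4 and FGFRL1 were longer in every OA library. FGFRL1, which lacks a kinase, had 587, 815 and 0 bp in vehicle and 1256, 1913 and 2668 bp in OA. For H3K27me3, 5 of 27 ligands, 6 of 9 further receptors, 1 of 17 inhibitors, 2 of 10 targets and 0 of 22 signalling genes were called in at least 2 libraries. Among all 20007 protein-coding genes, 4117 were called in at least 2 libraries for this mark. Of the listed genes, ERBB4, NRG4 and EGR3 were those longer in every vehicle library. ERBB4, the remaining EGF receptor relative, had almost no H3K4me3 but H3K27me3 of 2013, 2100 and 990 bp in vehicle and 542, 683 and 0 bp in OA, without overlap, as at 9.21% of the genes tested for this mark. NRG4, a ligand of ERBB4, had 525, 573 and 877 bp of H3K27me3 in vehicle and 0 bp in every OA library, and the immediate early gene EGR3 had 1386, 707 and 780 bp in vehicle and 617, 0 and 0 bp in OA.

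Downstream of the receptors, 21 of the 22 signalling genes had H3K4me3 in all 6 libraries. The exception was MAPK3 (ERK1), with 253, 491 and 0 bp in vehicle and 806, 930 and 1144 bp in OA, the one signalling gene of 22 that was longer in every OA library, a share below the 9.13% of all genes. All 17 inhibitors were called in all 6, and SPRY3, SPRED3 and IL17RD, which dampen RAS-MAPK signalling, were the 3 that were longer in every OA library. The groups overlapped for the other 14, for example DUSP6 with 2562, 2522 and 2114 bp in vehicle and 1241, 2815 and 3386 bp in OA. Among 10 transcriptional targets, 8 called in all 6, EGR2 alone was longer in every OA library, a share near that of all genes, with 1060, 1163 and 391 bp in vehicle and 1571, 1855 and 1965 bp in OA. No gene of the 5 lists had a longer H3K4me3 call in every vehicle library, against 0.328% of all genes tested.

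The genes whose H3K4me3 called length was most like that of PDGFRA over the 8 vehicle, OA and untreated libraries were TMEM74B, SEPTIN3, DYNLRB2, FOXA2 and SYT17, each with a Pearson r of 0.999 on the log2 scale. All 5 were at 0 in the 5 libraries without OA, so that r mainly reflects calls in the 3 OA libraries and their order. FOXA2, a pioneer transcription factor, had 817, 964 and 1485 bp in OA replicates 1, 2 and 3, and DYNLRB2, a dynein light chain, had 285, 334 and 411 bp. These genes lie on chromosomes 16, 20 and 22.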

How the data were processed

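CUT&RUN peak lists of 16 MCF-10A libraries were used as deposited, and groups came from the submitters' labels, which say that cells were seeded in biological triplicate. Per the methods, H3K4me3 peaks came from MACS2 (2.2.7.1) and H3K27me3 peaks from SICER2, although the H3K27me3 lists have the MACS2 broadPeak layout. The aligner, the treatment of duplicates and any control library in calling are not given in the sources used here. Coordinates are hg38. Per the file headers and layout, the authors gave each peak a fold enrichment, which is the ratio of the peak to its local background, a −log10 p and a −log10 q, a display score and, for narrow peaks, a summit offset. The deposited score and the q were not compared between libraries. The authors did not scale these values across libraries, and p grows with depth.

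Peaks on other contigs were left out. The called length is the sum of peak bases within 5 kb of any GENCODE release 44 start site of a gene. Regions are peaks of the 6 libraries of a mark merged at 1 bp of overlap. In counts over the whole series they were kept when called in at least 2 libraries. The test for a single value was the exact permutation test, two-sided, on the difference between group means. Called lengths of genes with a call in at least 2 libraries were fitted with limma 3.58.1 (R 4.3.3) on log2(bp + 200) over all 6 libraries of a mark, with Benjamini-Hochberg adjustment over all genes, after a test on simulated data. Summit reads were recovered from the fold and −log10 p of narrow peaks (100% of those tried, up to 1500 reads). RefSeq promoter windows (GRCh38.p14) cover 8 of the 10 genes. Scripts ran in Python 3.11.15 with numpy 2.4.6 and scipy 1.17.1, and figures were drawn with matplotlib 3.10.9.

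Members, gene lists and tests were chosen with earlier results of these data known. Named genes were the 10 members, the 17 protein-coding genes listed for the PDGFRA to KDR segment, and SCFD2 and CRACD, which had regions at a start in it. Also named were pathway genes with an OA-only or vehicle-only region, past the threshold or with groups that do not overlap, and the 5 genes most like PDGFRA. Others were named for contrast after their values were seen, as were the RefSeq starts and the markers. Alternatives covered the q-value, the number of peaks, the window, start sites, IgG peaks, scaling, the log offset, joined broad peaks, each replicate and a replicate block. The option to count only peaks nearest to a gene's own start was added after the data were seen.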

Additional observations from a re-analysis of the deposited data

How the results depend on the processing

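Of 195 values recomputed for the main comparisons 176 stayed close to the main value (counts within 1.5 times, other values within 1 SD between replicates), 18 moved further and 1 reversed. Of 224 for single genes 215 stayed within these limits and 9 moved further, although the sign changed under at least 1 alternative for the H3K4me3 difference of FGFR3 and EGFR and the H3K27me3 difference of PDGFRA, PDGFRB and FGFR3. The H3K4me3 difference at PDGFRA (1191 bp) was 0 with windows of 1 kb, where PDGFRA less its neighbours reversed from 808 to −383 bp and the OA-only member regions went from 2 to 0, since both regions lie more than 1 kb from a GENCODE start. Only 1 of these regions was OA-only when peaks had to cover at least 50% of it. Without single replicates the PDGFRA difference ranged from 980 to 1382 bp and that against its neighbours from 699 to 876 bp. The number of receptors longer in every OA library ranged from 3 to 6, highest without vehicle replicate 1 (KDR, FGFR1 and ERBB2 joined) and 5 without OA replicate 1, and the number longer in every vehicle library from 0 to 1. OA-only H3K4me3 regions numbered 2 to 3. For H3K27me3 the member longer in every vehicle library (FGFR1, 1 in the main analysis) was 0 at a q-value of at most 1e-05, 0 with the same number of peaks and 0 with windows of 10 kb. It became 2, with KIT added, for windows of 1 kb, the canonical start alone, broad peaks within 5 kb joined, or without OA replicate 1, so the range over left-out replicates was 1 to 2. The vehicle-only H3K27me3 region was 0 at a q-value of at most 1e-05, with the same number of peaks or at 50% cover, and 1 to 2 without single replicates. With limma, 1 member (PDGFRA) passed for H3K4me3 after scaling to called length. An offset of 1000 bp let 10 genes pass, none of them a receptor. Where no cause is named above, the cause was not tested.

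Replicate numbers are shared by vehicle and OA libraries, but same-numbered libraries did not all deviate together. The correlations of their deviations were 0.15, 0.24 and −0.20 for H3K4me3 and 0.09, 0.03 and 0.03 for H3K27me3, so the numbers were not taken as pairs. With the replicate block the PDGFRA difference was 1191 bp (exact sign-flip permutation test, p = 0.25, the smallest that 3 pairs allow), that against its neighbours 808 bp, and limma with the block called 0 genes for either mark, as without it. Calls depend on depth, the depth of the H3K27me3 lists is unknown, and a missing call does not show that a mark is absent.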

Other observations

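Between KIT and KDR the data hold 1 region that was called in all 3 libraries of one group and in none of the other. It is an H3K27me3 region at chr4:54962743-54963648 (hg38), 733 to 734 kb past the PDGFRA start and 133 kb from the nearest start of KDR, and was called in vehicle. Its folds were 3.51, 4.80 and 3.67 and its percentiles 44.9, 95.7 and 40.7 in vehicle replicates 1, 2 and 3. The segment held 21 H3K27me3 regions in all, and none was called in all 6 libraries or in all OA and no vehicle library, patterns of 4.06% and 0.245% of H3K27me3 regions in the whole series, where the vehicle-only pattern made up 2.55%.

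Among all RefSeq promoter windows, those with 20 or more CpG in 250 bases had an H3K4me3 peak in all 6 libraries in 52.6% of 11313 cases and in all OA but no vehicle library in 0.751%. For windows with 10 to 19 CpG, such as that of KDR, the shares were 38.1% and 0.813% of 6888, and for windows with 0 to 9 CpG they were 2.08% and 0.215% of 16742. The OA-only share was thus lowest in the CpG-poor class and no higher in the CpG-rich class than in the middle one. The internal PDGFRA start falls in the CpG-rich class and the canonical one in the CpG-poor class. KIT (34 CpG), FGFR3 (40) and the first listed FGFR2 start (42) are also in the CpG-rich class, and their windows had H3K4me3 peaks in 0, 0 and 1 of the 6 libraries. Of the remaining receptor windows in that class, the one before the canonical EGFR start (25) had a peak in 1 library. That of a RefSeq start of ERBB2 (23), at −11970 bp from the canonical one, had a peak in all 6. These windows end just before the start, so peaks that begin at or past it are not counted. Regions over the canonical start were called in 2 vehicle and 3 OA libraries at FGFR3 and at FGFR2. At EGFR such a region was called in all 6. The KIT region just past the start was called in 0 vehicle and 2 OA libraries.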
